A study of Arabidopsis thaliana with 4 samples.

Results

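The Aux/IAA repressors and the GH3 auxin-conjugating enzymes were followed in seedlings that overexpress the transcription factor HBI1. They comprised 35 loci, 29 Aux/IAA genes (IAA1 to IAA20 and IAA26 to IAA34) and 6 GH3 genes (GH3.1, GH3.2, GH3.3, GH3.5, GH3.6 and GH3.17), taken by locus from the 33518 loci of the deposited count tables. They were taken by name, with earlier results of these data known, and do not cover every GH3 gene of the genome; GH3.4 and GH3.9 were counted with other inactivation genes. The HBI1-Ox genotype was compared with Col-0 in Arabidopsis thaliana. The HBI1-Ox seedlings carried 35S::HBI1-YFP, in which the broadly active viral 35S promoter drives HBI1 fused to a yellow fluorescent protein. The Col-0 seedlings were wild type, and both genotypes were raised for 5 days on half-strength MS medium under constant light. Each genotype gave 2 RNA-seq libraries of whole seedlings, HBI1-Ox with 19647745 and 14981824 reads on genes and Col-0 with 13068448 and 10785178. The labels name 1 transgenic genotype and give no separate cultures or plantings for its libraries or those of Col-0. The p-values therefore refer to the spread among these 4 libraries, which may be technical. HBI1 itself stood at 1567 and 1509 CPM (read counts relative to the library's reads on genes, scaled between libraries with edgeR's TMM factors) in the HBI1-Ox libraries, against 99.3 and 84.6 CPM in the Col-0 libraries.

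Aux/IAA proteins are short-lived nuclear repressors. They hold auxin response factors (ARFs) inactive at auxin-responsive genes with the help of TOPLESS co-repressors. Auxin joins an Aux/IAA protein to a TIR1/AFB receptor, an F-box protein, and the repressor is then degraded. Many Aux/IAA and GH3 genes are themselves switched on by auxin, so their transcripts are widely read as markers of auxin response and also feed back on it. GH3 enzymes attach amino acids to indole-3-acetic acid, the main auxin, and so take it out of the active pool. HBI1 is a basic helix-loop-helix factor known for promoting cell elongation and for lowering immune responses, and factors of its class bind E-box sequences such as the G-box.

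Both families held fewer transcripts of many members in HBI1-Ox than in Col-0, while a few abundant Aux/IAA genes held more. Of the 31 members tested, 4 rose (IAA7, IAA8, IAA17 and IAA28) and 11 fell (IAA1, IAA3, IAA9, IAA13, IAA26, IAA27, IAA32, GH3.1, GH3.2, GH3.3 and GH3.6) at an adjusted p under 0.05 (edgeR's quasi-likelihood test, adjusted over all genes by Benjamini-Hochberg). The other 16 did not pass, and IAA15, IAA20, IAA33 and IAA34 had too few reads to be tested. Among all 20320 genes tested, 15.5% were called, 8.33% higher and 7.15% lower. Among the tested members 48.4% were called, 12.9% higher and 35.5% lower. The median log2 change was -0.32 over the 25 tested Aux/IAA genes and -0.84 over the 6 GH3 genes, beside -0.01 over all tested genes. Total-count scaling moved the median of all genes to -0.16 and their calls to 995 higher and 3494 lower, against 1693 and 1452 with TMM. With it 2 Aux/IAA genes passed as higher and 12 as lower, and 4 GH3 genes as lower. All 15 called members kept the direction of their change in every alternative fit that was run. Fewer passed when an HBI1-Ox library was left out, GH3.6 alone without library 1 and IAA26 and GH3.6 without library 2. Calls over all genes were then 242 higher and 187 lower without library 1 and 289 and 222 without library 2, and the log2 change of no called member moved by more than 0.21. Leaving out Col-0 library 2 gave 5 Aux/IAA genes higher and 12 lower, with 3010 higher and 2773 lower over all genes.

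**Figure D1:**
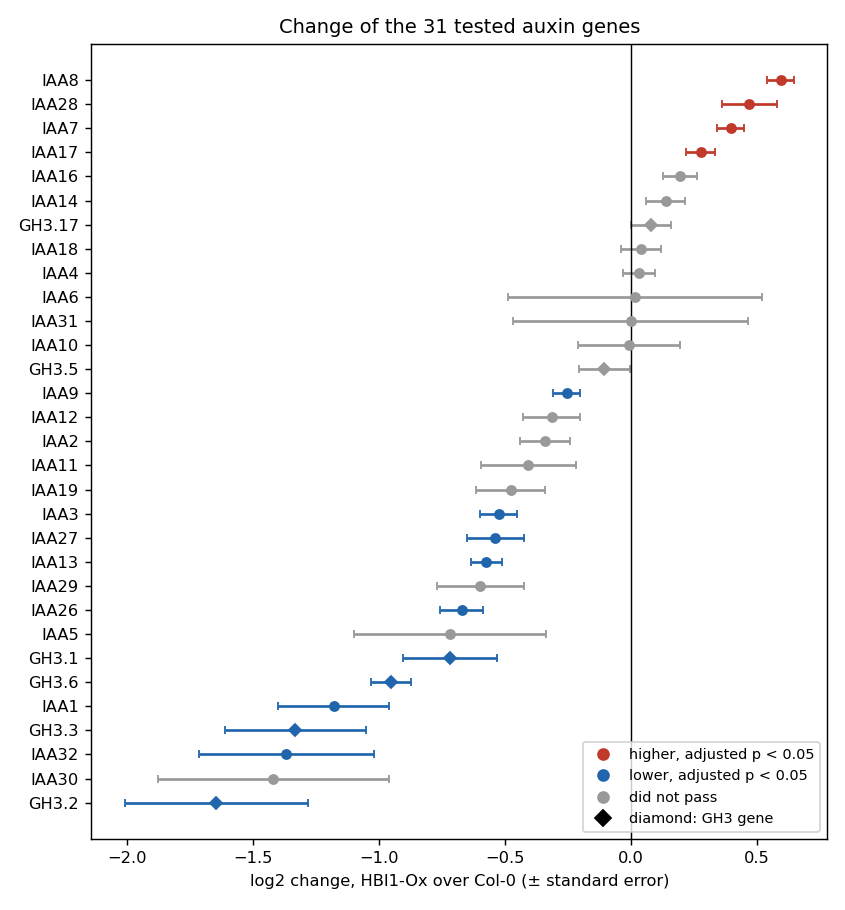
Log2 change of the 31 tested members, HBI1-Ox over Col-0, with its standard error (x axis, log2 units; 2 libraries a genotype), sorted by size; circles are Aux/IAA genes and diamonds GH3 genes. IAA8 stands at the top with 0.59 and GH3.2 at the bottom with -1.65, and 4 members are called higher and 11 lower.

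The coding sequence of the degron, the stretch of an Aux/IAA protein that the receptor grips, is shown for the called genes that hold it and for the neighbours IAA2 and IAA14, because every member without its core was scarce. Each run holds 13 codons, read from the TAIR10.1 genome with its RefSeq gene models, and the 4 codons of the Gly-Trp-Pro-Pro core are in capitals. The printed stretch lies at chr3:8195568-8195606 (plus strand) for IAA7, chr2:9637725-9637763 (plus strand) for IAA8, chr4:8361436-8361474 (plus strand) for IAA1 and chr2:14115224-14115262 (minus strand) for IAA13, each within 1 exon.
IAA7: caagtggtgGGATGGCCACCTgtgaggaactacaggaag
IAA8: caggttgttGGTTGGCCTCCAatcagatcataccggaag
IAA17: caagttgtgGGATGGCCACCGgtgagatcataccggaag
IAA28: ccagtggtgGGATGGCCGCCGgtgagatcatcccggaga
IAA1: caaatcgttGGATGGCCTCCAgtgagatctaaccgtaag
IAA2: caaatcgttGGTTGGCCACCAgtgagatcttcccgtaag
IAA3: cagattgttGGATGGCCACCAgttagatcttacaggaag
IAA9: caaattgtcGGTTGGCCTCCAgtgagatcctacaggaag
IAA13: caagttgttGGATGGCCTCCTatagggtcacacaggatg
IAA14: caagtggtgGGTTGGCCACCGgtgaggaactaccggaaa
IAA26: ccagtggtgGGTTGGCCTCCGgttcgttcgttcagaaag
IAA27: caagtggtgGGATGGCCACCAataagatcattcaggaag
The core was found in 23 of the 29 Aux/IAA genes. A valine codon followed it in 17 genes, an isoleucine codon in 5 (IAA8, IAA11, IAA12, IAA13 and IAA27) and a leucine codon in IAA10. The 6 genes without it were IAA20, IAA30, IAA31, IAA32, IAA33 and IAA34. None of these 6 averaged above 1.20 CPM per kilobase of mature transcript in HBI1-Ox or 1.54 in Col-0, and their medians were 0.388 CPM per kb in HBI1-Ox and 0.743 in Col-0. The 23 genes with the core had medians of 16.1 CPM per kb in HBI1-Ox and 21.8 in Col-0, and ranged up to 212 CPM per kb in HBI1-Ox and 161 in Col-0. IAA5, IAA6 and IAA15 hold the core and were also low, with means of at most 1.301 CPM per kb in HBI1-Ox and 1.36 in Col-0. Only 3 of the 6 genes without the core had enough reads to be tested, and IAA32 alone passed, as lower.

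The promoters of 6 members are printed next, because 5 of those genes were called and hold a motif bound by ARFs or by basic helix-loop-helix factors, and IAA19 is a widely used auxin marker with several such motifs. Each run covers the 250 bases before the gene start in RefSeq TAIR10.1. Capitals mark CACGTG, the G-box, and TGTCTC and TGTCGG, the core letters of auxin response elements, read on either strand (reverse complements GAGACA and CCGACA). The windows are chr3:8194356-8194605 (plus strand) for IAA7, chr2:9636096-9636345 (plus strand) for IAA8, chr4:8360746-8360995 (plus strand) for IAA1, chr3:5263751-5264000 (plus strand) for IAA19, chr4:17579368-17579617 (plus strand) for GH3.2 and chr2:9866563-9866812 (minus strand) for GH3.3.
IAA7: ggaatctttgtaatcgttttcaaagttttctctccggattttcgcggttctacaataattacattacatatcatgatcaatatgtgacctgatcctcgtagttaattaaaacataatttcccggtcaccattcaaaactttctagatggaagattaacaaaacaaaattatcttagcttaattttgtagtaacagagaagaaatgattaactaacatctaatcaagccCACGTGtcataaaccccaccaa
IAA8: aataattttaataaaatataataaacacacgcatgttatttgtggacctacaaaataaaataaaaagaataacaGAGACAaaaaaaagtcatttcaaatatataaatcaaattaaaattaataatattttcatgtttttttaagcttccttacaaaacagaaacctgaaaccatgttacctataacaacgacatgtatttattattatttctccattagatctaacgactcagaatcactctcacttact
IAA1: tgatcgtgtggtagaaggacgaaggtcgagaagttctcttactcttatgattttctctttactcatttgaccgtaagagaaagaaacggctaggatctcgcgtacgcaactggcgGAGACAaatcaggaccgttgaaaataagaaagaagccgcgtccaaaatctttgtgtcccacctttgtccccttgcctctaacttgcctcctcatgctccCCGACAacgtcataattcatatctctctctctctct
IAA19: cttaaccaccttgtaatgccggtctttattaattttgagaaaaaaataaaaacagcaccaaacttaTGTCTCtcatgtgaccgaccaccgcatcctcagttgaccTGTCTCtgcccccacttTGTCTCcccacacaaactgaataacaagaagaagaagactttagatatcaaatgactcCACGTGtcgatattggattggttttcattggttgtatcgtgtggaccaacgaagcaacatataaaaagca
GH3.2: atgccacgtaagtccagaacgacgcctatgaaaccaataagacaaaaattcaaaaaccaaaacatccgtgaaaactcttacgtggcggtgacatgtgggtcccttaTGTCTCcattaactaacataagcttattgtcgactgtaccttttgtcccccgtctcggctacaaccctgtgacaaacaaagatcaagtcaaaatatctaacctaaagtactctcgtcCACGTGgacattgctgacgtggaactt
GH3.3: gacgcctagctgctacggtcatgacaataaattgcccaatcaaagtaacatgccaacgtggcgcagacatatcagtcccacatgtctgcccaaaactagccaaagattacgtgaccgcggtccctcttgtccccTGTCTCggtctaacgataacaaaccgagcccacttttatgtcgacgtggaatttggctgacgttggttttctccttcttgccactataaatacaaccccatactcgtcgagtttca
TGTCTC was found on either strand in 12 of the 35 promoters (34.3%), against 10.9% of the 27443 promoters of protein-coding genes searched in the same way. TGTCGG was found in 6 (17.1%), against 4.16% of all promoters. CACGTG was found in 5 (14.3%), against 6.49%. The looser CANNTG, the E-box, which includes every CACGTG, was found in 22 (62.9%), against 55.3%. Among the 11 members that fell, TGTCTC stood in the windows of IAA1, IAA32, GH3.2 and GH3.3 and CACGTG in that of GH3.2. TGTCGG stood in the windows of IAA1, IAA13 and IAA27, which fell. Among the 4 that rose, TGTCTC stood in the window of IAA8, CACGTG in that of IAA7 and TGTCGG in none. Among the 16 that did not pass, TGTCTC stood in 5 windows, TGTCGG in 3 and CACGTG in 2. The window of GH3.6, the member with the smallest adjusted p, held none of these motifs. A link between motifs and calls was not tested. These matches describe the letters in the windows, and a window with no match says nothing about the factors.

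Aux/IAA genes differed widely in level. Per kilobase of mature transcript, IAA7 was at rank 1 in both genotypes, with 211 and 213 CPM per kb in the HBI1-Ox libraries and 162 and 161 in the Col-0 libraries. It held 20.6% and 20.8% of the summed Aux/IAA level per kb in HBI1-Ox and 17.0% and 16.7% in Col-0. IAA8 was at rank 2 in HBI1-Ox and 3 in Col-0, with 179 and 180.01 CPM per kb in HBI1-Ox and 119 and 119 in Col-0. IAA9 was at rank 4 in HBI1-Ox and 2 in Col-0, with 121 and 117 CPM per kb in HBI1-Ox and 144 and 141 in Col-0. IAA16 was at rank 3 in HBI1-Ox and 4 in Col-0, at 129.7 and 133 CPM per kb in HBI1-Ox and 121 and 109 in Col-0. In Col-0 its libraries lay on either side of those of IAA8, so these neighbours in the order did not differ beyond their spread. IAA17 was at rank 5 in both, with 85.1 and 84.3 CPM per kb in HBI1-Ox and 70.01 and 70.1 in Col-0. Ranking by coding length instead left 18 of the 35 members at the same rank and moved none by more than 3 places.

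**Figure D2:**
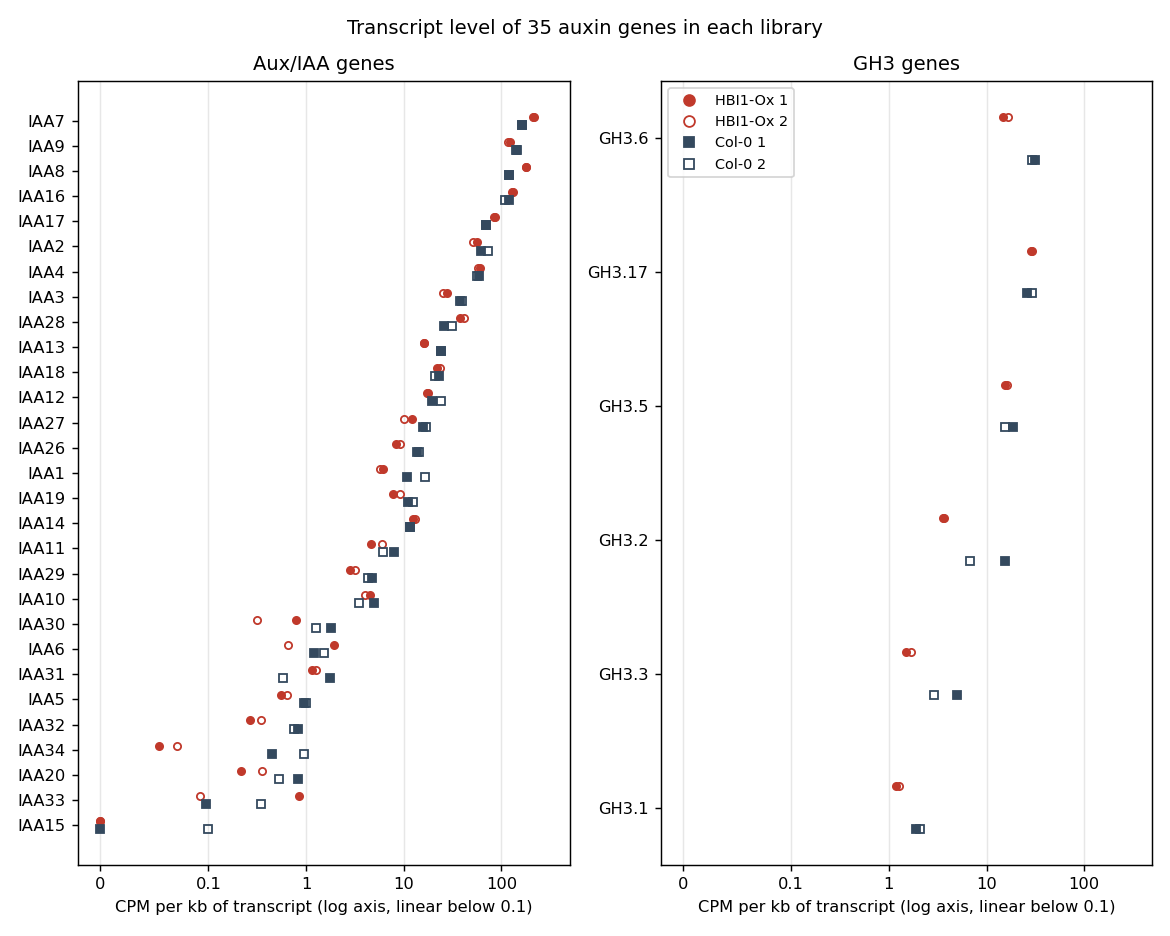
Transcript level of each of the 35 members in each library (x axis, CPM per kb of mature transcript, log axis that is linear below 0.1), ordered within each family by the Col-0 mean; red circles are HBI1-Ox libraries and dark squares Col-0 libraries. IAA7 is highest at a mean of 212 CPM per kb in HBI1-Ox and 161 in Col-0, and the genes at the foot of the left panel are near 0.

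The summed level of the 29 Aux/IAA genes was 1669 and 1667 CPM in HBI1-Ox, against 1550 and 1552 CPM in Col-0 with TMM scaling. With total-count scaling its direction turned, to 1580 and 1584 CPM in HBI1-Ox against 1606 and 1659 in Col-0, so no direction is given for the family sum. The make-up of the family does not depend on that scaling. IAA7, IAA14, IAA16 and IAA17 together held 42.7% and 43.3% of the Aux/IAA level per kb in HBI1-Ox and 38.2% and 36.5% in Col-0. IAA1 to IAA4 held 14.6% and 13.6% in HBI1-Ox and 17.6% and 19.3% in Col-0. IAA8, IAA9 and IAA27 held 30.4% and 30.0% in HBI1-Ox and 29.2% and 28.8% in Col-0. The genotypes did not overlap in any of these 3 shares. With 2 libraries against 2 an exact permutation test cannot go below p = 0.33, and none was run.

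IAA8, an abundant Aux/IAA gene, rose most among the members. It had 303 and 305 CPM in HBI1-Ox, against 201 and 202 CPM in Col-0. The libraries of each genotype lay within 2 CPM of each other and the genotypes were far apart. The log2 change was 0.59 ± 0.05 (standard error, n = 2 each; edgeR's quasi-likelihood test, adjusted p = 0.00119). The authors' deposited table lists IAA8 with a log2 change of 0.61. Of the other called members it lists IAA13, IAA26 and GH3.6 alone, so it gives no value for the rest.

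IAA7 (AXR2), whose stabilising mutation gives dwarf, auxin-resistant plants, had 326 and 329 CPM in HBI1-Ox, against 249.9 and 248 CPM in Col-0. The genotypes did not overlap, and the log2 change was 0.39 ± 0.05 (edgeR's quasi-likelihood test, adjusted p = 0.00513). IAA17 (AXR3), another repressor known from auxin-resistant mutants with agravitropic roots, had 112 and 111 CPM in HBI1-Ox, against 92.2 and 92.3 CPM in Col-0. Its change was small and even, at 0.27 ± 0.06 on the log2 scale (edgeR's quasi-likelihood test, adjusted p = 0.0234). IAA28, which acts in the priming of lateral root founder cells, had 51.9 and 57.5 CPM in HBI1-Ox, against 35.6 and 43.6 CPM in Col-0. Its libraries were more spread within each genotype but did not overlap, with a log2 change of 0.47 ± 0.11 (edgeR's quasi-likelihood test, adjusted p = 0.0344). IAA17 and IAA28 no longer passed with total-count scaling, where their log2 changes were 0.12 and 0.32.

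Of the 7 Aux/IAA genes that fell, IAA13 gave the smallest adjusted p. IAA13, which acts with its close relative IAA12 in forming the embryonic root, had 29.6 and 29.0 CPM in HBI1-Ox, against 43.5 and 43.9 CPM in Col-0. Its log2 change was -0.58 ± 0.06 (edgeR's quasi-likelihood test, adjusted p = 0.00218), and the authors' deposited table lists -0.56. IAA26 (PAP1), which is known to bind phytochrome in vitro, had 16.6 and 18.4 CPM in HBI1-Ox, against 27.2 and 28.4 CPM in Col-0. The lowest Col-0 library was well above the highest HBI1-Ox library, and the log2 change was -0.67 ± 0.09 (edgeR's quasi-likelihood test, adjusted p = 0.00421; -0.65 in the authors' deposited table). IAA27 (PAP2) had 17.4 and 14.3 CPM in HBI1-Ox, against 22.4 and 24.0 CPM in Col-0, a log2 change of -0.54 ± 0.11 (edgeR's quasi-likelihood test, adjusted p = 0.0249) that did not pass in DESeq2. IAA9, a close relative of IAA8, had 237 and 229 CPM in HBI1-Ox, against 280.4 and 276 CPM in Col-0. It moved against IAA8, by -0.26 ± 0.05 on the log2 scale (edgeR's quasi-likelihood test, adjusted p = 0.0263).

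IAA3 (SHY2), which sets the size of the root meristem downstream of cytokinin, had 37.6 and 34.6 CPM in HBI1-Ox, against 50.6 and 53.5 CPM in Col-0. The log2 change was -0.53 ± 0.07 (edgeR's quasi-likelihood test, adjusted p = 0.00592). IAA1 (AXR5), an early auxin-induced gene, had 5.81 and 5.41 CPM in HBI1-Ox, against 10.11 and 15.6 CPM in Col-0. The HBI1-Ox libraries were close together and the Col-0 libraries were not, though both Col-0 values were the higher. The log2 change was -1.18 ± 0.22 (edgeR's quasi-likelihood test, adjusted p = 0.0174), with -1.46 when Col-0 library 1 was left out and -0.84 when Col-0 library 2 was. IAA32, which lacks the degron core and acts with IAA34 at the concave side of the apical hook, was counted at only 8 and 8 reads in HBI1-Ox, against 18 and 14 reads in Col-0. Its log2 change of -1.37 ± 0.35 (edgeR's quasi-likelihood test, adjusted p = 0.0448) rested on those few reads. It no longer passed without a low-count filter, in DESeq2 or with a replicate block, and its adjusted p ranged from 0.0256 to 0.438 over the alternatives.

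The remaining tested Aux/IAA genes did not pass. IAA19 (MSG2), which acts in hypocotyl tropic bending, had 7.85 and 9.27 CPM in HBI1-Ox, against 11.2 and 12.6 CPM in Col-0. Its genotypes did not overlap, but the log2 change of -0.48 ± 0.14 missed the threshold (edgeR's quasi-likelihood test, adjusted p = 0.0611). The change passed with total-count scaling and without a low-count filter, and was -0.56 or -0.40 without Col-0 library 1 or 2. IAA29, a gene known to be switched on by phytochrome-interacting factors, had 3.495 and 4.01 CPM in HBI1-Ox and 5.91 and 5.38 CPM in Col-0. Its log2 change of -0.60 ± 0.17 did not pass (edgeR's quasi-likelihood test, adjusted p = 0.0648). It passed with total counts and without a low-count filter, and was -0.52 or -0.67 without Col-0 library 1 or 2. IAA30, another member without the degron core, had 13 and 4 reads in HBI1-Ox and 22 and 13 in Col-0, and its log2 change of -1.42 ± 0.46 did not pass (edgeR's quasi-likelihood test, adjusted p = 0.0883). It became -2.26 without HBI1-Ox library 1, and it passed with total counts and without Col-0 library 2. IAA16 had 263 and 269 CPM in HBI1-Ox and 244 and 220.3 CPM in Col-0, a log2 change of 0.20 ± 0.07 (edgeR's quasi-likelihood test, adjusted p = 0.106). It became 0.28 or 0.12 without Col-0 library 1 or 2, and 0.04 with total counts. IAA12 (BDL) had 24.2 and 24.4 CPM in HBI1-Ox and 26.9 and 33.8 CPM in Col-0, without overlap, and did not pass either (log2 change -0.32 ± 0.11; edgeR's quasi-likelihood test, adjusted p = 0.115). It passed with total counts and without Col-0 library 1, and shrank to -0.15 on the log2 scale once Col-0 library 2 was left out. IAA4 at 81.1 and 77.6 CPM in HBI1-Ox and 79.3 and 76.2 CPM in Col-0, and IAA18 at 38.8 and 41.9 CPM in HBI1-Ox and 41.1 and 37.2 CPM in Col-0, overlapped. IAA5, IAA6, IAA10, IAA11 and IAA31 averaged from 0.461 to 6.79 CPM in HBI1-Ox and from 0.759 to 8.89 CPM in Col-0 and did not pass. Of these, IAA6, IAA10 and IAA31 overlapped between the genotypes. IAA5 and IAA11 were lower in both HBI1-Ox libraries, with log2 changes of -0.72 ± 0.38 and -0.41 ± 0.19. Over all 31 tested members, both HBI1-Ox libraries lay above both Col-0 libraries in 6 (19.4%) and below both in 18 (58.1%), and 7 overlapped. The same shares over all tested genes were 29.7% above and 31% below.

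Among the 4 untested members, IAA34 had 1 and 1 reads in HBI1-Ox, against 6 and 11 reads in Col-0. Pooled, its level in HBI1-Ox was 8.99% of that in Col-0, with an exact 95% interval of 1.01% to 37.9% that covers counting error only. The authors' deposited table lists IAA34 with a log2 change of -3.48. Fitted without a low-count filter it passed (edgeR's quasi-likelihood test, adjusted p = 0.0299), and it did not pass in the other fits that kept it, where the adjusted p ran up to 0.291. IAA20 had 4 and 5 reads in HBI1-Ox and 11 and 6 in Col-0, and IAA33 had 12 and 1 reads in HBI1-Ox and 1 and 3 in Col-0. Pooled, IAA20 in HBI1-Ox stood at 40.4% of Col-0 (exact 95% interval for counting error 15.9% to 95.9%), with both HBI1-Ox libraries below both Col-0 libraries, and it did not pass in any fit that kept it. No difference was detectable for IAA33 at so few reads, and IAA15 had 1 read in all 4 libraries together.

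Of the 6 GH3 genes 4 fell and none rose. GH3.6 (DFL1), whose overexpression shortens the hypocotyl, had 34.4 and 38.2 CPM in HBI1-Ox, against 72.4 and 67.8 CPM in Col-0. The genotypes were well separated, and the log2 change was -0.95 ± 0.08 (n = 2 each; edgeR's quasi-likelihood test, adjusted p = 0.00096; -0.93 in the authors' deposited table). This was the smallest adjusted p among the members. GH3.6 was at rank 3 of the GH3 genes per kb of transcript in HBI1-Ox, with a mean of 15.6 CPM per kb, and at rank 1 in Col-0, with 30.2. These ranks hold for means, since its libraries overlapped those of GH3.5 in HBI1-Ox and those of GH3.17 in Col-0. Its share of the summed GH3 level was 22.4% and 24.2% in HBI1-Ox and 31.8% and 34.2% in Col-0. GH3.17 (VAS2), which mainly conjugates auxin to glutamate, held the largest share in HBI1-Ox, at 44.7% and 42.2%, against 26.3% and 34.2% in Col-0. Its own level overlapped between the genotypes, while the summed GH3 level was 66.0 and 67.8 CPM per kb in HBI1-Ox and 98.2 and 85.6 in Col-0.

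GH3.2 (YDK1) had 7.96 and 7.73 CPM in HBI1-Ox, against 33.8 and 14.8 CPM in Col-0. Both Col-0 libraries were higher, but they differed from each other by more than either HBI1-Ox library differed from Col-0 library 2. The log2 change was -1.65 ± 0.36 (edgeR's quasi-likelihood test, adjusted p = 0.0293), with -0.91 when Col-0 library 1 was left out and -2.10 when Col-0 library 2 was, and it did not pass in DESeq2. GH3.3, which is rapidly induced by auxin, had 3.172 and 3.58 CPM in HBI1-Ox, against 10.6 and 6.16 CPM in Col-0. It had the same ordering of the Col-0 libraries, and its log2 change was -1.33 ± 0.28 (edgeR's quasi-likelihood test, adjusted p = 0.0251), which became -0.87 or -1.66 when Col-0 library 1 or 2 was left out. GH3.1 had 2.63 and 2.81 CPM in HBI1-Ox, against 4.28 and 4.68 CPM in Col-0. Its log2 change of -0.72 ± 0.19 was just past the threshold (edgeR's quasi-likelihood test, adjusted p = 0.0479), and it did not pass in DESeq2 or with a replicate block.

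The other GH3 genes did not pass. GH3.5 (WES1), which also acts on salicylic acid, had 36.2 and 38.3 CPM in HBI1-Ox and 44.0 and 36.0 CPM in Col-0. GH3.17 had 68.6 and 66.6 CPM in HBI1-Ox and 60.2 and 68.1 CPM in Col-0. Both overlapped between the genotypes, with log2 changes of -0.11 ± 0.10 for GH3.5 and 0.08 ± 0.08 for GH3.17 (edgeR's quasi-likelihood test, adjusted p = 0.529 and 0.551). Both passed when Col-0 library 2 was left out, at -0.24 for GH3.5 and 0.17 for GH3.17, and without Col-0 library 1 the change of GH3.5 was 0.06. Summed over the 6 genes, GH3 transcripts stood at 153 and 157 CPM in HBI1-Ox and 225 and 198 CPM in Col-0. With total-count scaling the sums were 145 and 149 CPM in HBI1-Ox and 234 and 211 CPM in Col-0, in the same direction.

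**Figure D3:**
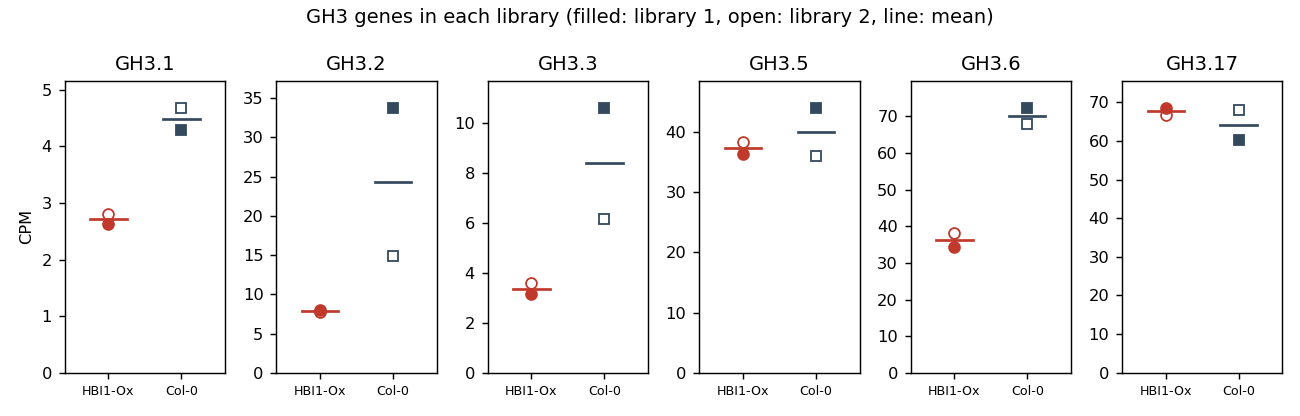
CPM of the 6 GH3 genes in each library (y axis, linear from 0, own scale per gene; filled symbols are library 1, open symbols library 2, lines the mean of 2 libraries), HBI1-Ox left of Col-0. The genotypes are apart for GH3.1, GH3.2, GH3.3 and GH3.6 and overlap for GH3.5 and GH3.17, and the 2 Col-0 libraries of GH3.2 stand at 33.8 and 14.8 CPM.

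Among the Aux/IAA genes, 6 lie as 3 divergent neighbour pairs, each with 1 gene on either strand. IAA3 (AT1G04240, chr1:1128149-1129689, minus strand) and IAA17 (AT1G04250, chr1:1136078-1138663, plus strand) are 6388 bp apart in RefSeq TAIR10.1, with the lncRNA locus AT1G04253 between them. IAA2 (AT3G23030, chr3:8180646-8182095, minus strand) and IAA7 (AT3G23050, chr3:8194606-8197161, plus strand) are 12510 bp apart. IAA14 (AT4G14550, chr4:8347822-8350263, minus strand) and IAA1 (AT4G14560, chr4:8360996-8362033, plus strand) are 10732 bp apart. Each pair joins a gene of the IAA1 to IAA4 group with one of the IAA7, IAA14, IAA16 and IAA17 group, and in all 3 the ratio of the IAA7-group gene to its neighbour was higher in HBI1-Ox.

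IAA17 stood at 3.07 and 3.31 times IAA3 per kb in HBI1-Ox, against 1.88 and 1.77 times in Col-0. Here both genes passed, IAA17 as higher and IAA3 as lower. IAA7 stood at 3.78 and 4.21 times IAA2 per kb in HBI1-Ox, against 2.63 and 2.18 times in Col-0. IAA7 rose, whereas IAA2 had 75.9 and 68.9 CPM in HBI1-Ox and 83.7 and 100.1 CPM in Col-0 and did not pass (log2 change -0.34 ± 0.10; edgeR's quasi-likelihood test, adjusted p = 0.067). The change of IAA2 passed with total counts and without a low-count filter, and was -0.45 or -0.20 without Col-0 library 1 or 2. IAA14 (SLR), the repressor that blocks lateral root initiation when stabilised, stood at 2.04 and 2.26 times IAA1 per kb in HBI1-Ox, against 1.07 and 0.706 times in Col-0. IAA1 fell, whereas IAA14 had 21.6 and 22.3 CPM in HBI1-Ox and 19.8 and 20.1 CPM in Col-0 and did not pass. The log2 change of IAA14 was 0.14 ± 0.08 with TMM (edgeR's quasi-likelihood test, adjusted p = 0.283) and -0.01 with total-count scaling. A ratio of 2 genes within a library does not depend on scaling, and the genotypes did not overlap in any of the 3 ratios. The difference within a pair was not tested.

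**Figure D4:**
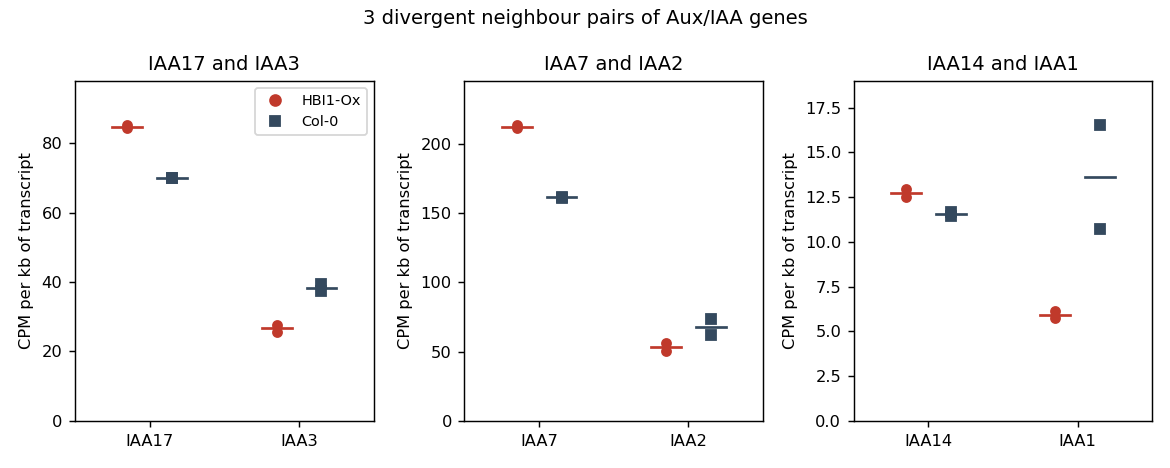
Level of both genes of the 3 divergent Aux/IAA pairs (y axis, CPM per kb of mature transcript, linear from 0; points are libraries, lines the mean of 2), with HBI1-Ox in red circles left of Col-0 in dark squares. IAA17 to IAA3 is 3.07 and 3.31 in HBI1-Ox and 1.88 and 1.77 in Col-0, and the other pairs shift the same way.

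Genes around the 2 families in the auxin pathway were counted from lists chosen by function. The share called was 12.5% of the tested synthesis genes, 16.7% of the receptors and 13.3% of the ARFs, each near the 15.5% over all tested genes. Of 8 tested auxin synthesis genes (14 in the list) none rose and 1 fell, TAA1, the tryptophan aminotransferase of the main synthesis route. It had 12.6 and 13.9 CPM in HBI1-Ox, against 17.0 and 19.7 CPM in Col-0 (log2 change -0.47 ± 0.11; edgeR's quasi-likelihood test, adjusted p = 0.0382). Of the 6 TIR1/AFB receptor genes, AFB1 alone passed, with 65.1 and 67.9 CPM in HBI1-Ox, against 51.7 and 53.8 CPM in Col-0 (log2 change 0.33 ± 0.06; edgeR's quasi-likelihood test, adjusted p = 0.0193). Of 15 ARF genes none rose and 2 fell. ARF4 had 41.7 and 41.3 CPM in HBI1-Ox, against 50.4 and 51.9 CPM in Col-0 (log2 change -0.30 ± 0.06; edgeR's quasi-likelihood test, adjusted p = 0.0246). ARF19, an activator of auxin-responsive genes in lateral root formation, had 19.2 and 20.1 CPM in HBI1-Ox, against 23.8 and 26.4 CPM in Col-0 (log2 change -0.35 ± 0.08; edgeR's quasi-likelihood test, adjusted p = 0.0381). None of the 5 TOPLESS genes passed. TAA1, ARF4 and ARF19 did not pass in DESeq2, AFB1 did not pass with total counts, and none of the 4 passed with an HBI1-Ox library left out or the HBI1-Ox libraries summed.

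A list of 7 further inactivation genes held GH3.4 and GH3.9 beside genes of other routes, and 5 of the 7 were tested. The share called was 40% of these, 16.7% of the tested hydrolase genes and 33.3% of the tested LBD genes described below. Over all tested genes it was 15.5%, and with so few genes a list each share rests on few calls. GH3.4, with 2 and 4 reads in HBI1-Ox and 7 and 1 in Col-0, was not tested, and GH3.9 did not pass (log2 change -0.34 ± 0.13; edgeR's quasi-likelihood test, adjusted p = 0.149). The locus AT1G14120, a 2-oxoglutarate and Fe(II)-dependent oxygenase gene per the authors' deposited table, fell. It had 12.6 and 14.97 CPM in HBI1-Ox, against 34.5 and 36.0 CPM in Col-0 (log2 change -1.36 ± 0.10; edgeR's quasi-likelihood test, adjusted p = 0.000584). UGT74D1, which glucosylates oxidised auxin, rose, with 49.7 and 52.3 CPM in HBI1-Ox, against 40.8 and 39.4 CPM in Col-0 (log2 change 0.35 ± 0.07; edgeR's quasi-likelihood test, adjusted p = 0.0192). UGT84B1, another auxin glucosyltransferase gene, had 0 and 0 reads in HBI1-Ox and 14 and 3 in Col-0 and was too low for the main test. When low genes were kept it passed (edgeR's quasi-likelihood test, adjusted p = 0.0184), as it did in DESeq2, while its adjusted p ran up to 0.266 in the fits with fewer samples. Of 6 tested hydrolase genes of 7, whose enzymes release hormones from amino acid conjugates, ILL6 rose, with 52.4 and 51.3 CPM in HBI1-Ox, against 27.7 and 19.9 CPM in Col-0 (log2 change 1.12 ± 0.14; edgeR's quasi-likelihood test, adjusted p = 0.00374). Of 3 tested LBD genes of 4, which act downstream of ARFs in lateral root formation, LBD16 fell, with 3.495 and 2.81 CPM in HBI1-Ox, against 5.02 and 5.98 CPM in Col-0 (log2 change -0.78 ± 0.20; edgeR's quasi-likelihood test, adjusted p = 0.0455). AT1G14120 passed in every alternative fit that was run. UGT74D1 and LBD16 did not pass in DESeq2, UGT74D1 with total counts or LBD16 with a replicate block, and UGT74D1, ILL6 and LBD16 did not pass with an HBI1-Ox library left out or the HBI1-Ox libraries summed.

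**Figure D5:**
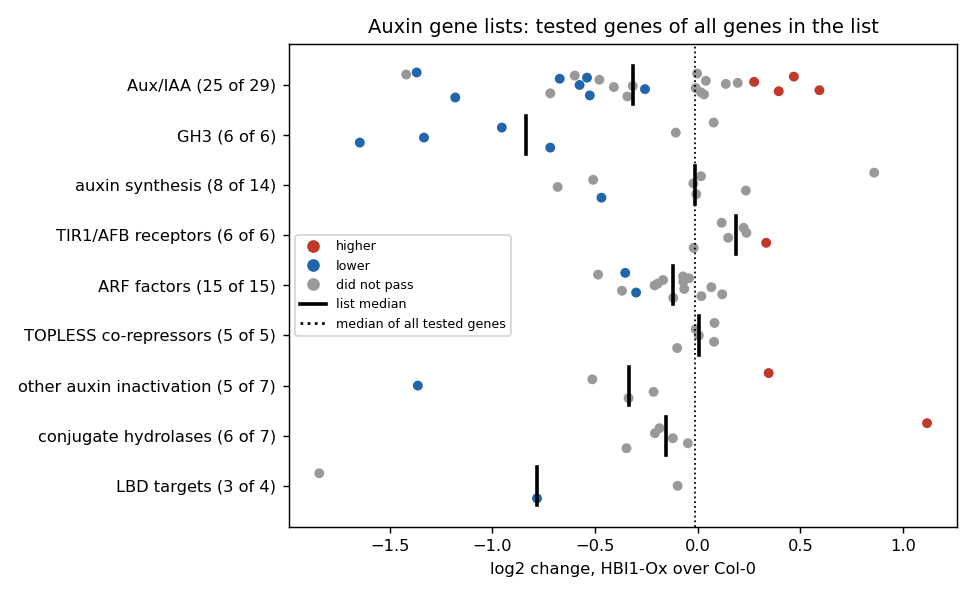
Log2 change, HBI1-Ox over Col-0 (x axis), of each tested gene in 9 auxin gene lists, with the number tested of the number listed beside each name; bars mark list medians and the dotted line the median of all tested genes, -0.01. The GH3 median lies at -0.84 and the Aux/IAA median at -0.32.

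Whole seedlings mix organs, and fewer cells of a type cannot be told apart from less RNA per cell. Over all tested genes 8.33% were called higher and 7.15% lower. Summed green tissue markers (5 photosynthesis genes, 3 called higher) stood at 43854 and 45488 CPM in HBI1-Ox and 37497 and 37510 CPM in Col-0. The highest of them, LHCB1.3, averaged 15439 CPM in HBI1-Ox and 15425 CPM in Col-0 and did not pass. Summed endodermis markers (5 CASP genes, 3 called lower) stood at 164 and 154 CPM in HBI1-Ox and 183 and 190 CPM in Col-0. The highest of them, CASP1, averaged 80.8 CPM in HBI1-Ox and 87.9 CPM in Col-0 and did not pass. Summed root hair markers (5 genes, 0 called) stood at 137 and 131 CPM in HBI1-Ox and 131 and 116 CPM in Col-0, and pollen markers at 0 and 0 CPM in HBI1-Ox and 0.074 and 0 CPM in Col-0. The part of these tissue differences in the Aux/IAA and GH3 changes was not tested. The HBI1-Ox libraries resembled each other more than the Col-0 libraries did, with a chi-square of 1.66 per member against 7.15. A value of 1 is counting error alone, and over all genes compared the values were 1.72 and 8.04. When the HBI1-Ox libraries were summed as 1 sample, IAA8 and GH3.6 alone still passed. Further, 8 members (IAA3, IAA5, IAA9, IAA10, IAA11, IAA13, IAA27 and IAA32, 5 of them called) overlap a gene on the opposite strand. AFB1, UGT74D1 and GH3.9 do so too, as do the markers CASP1, CASP5, LHCB1.3, EXPA7 and EXPA18. So do some genes of the other auxin lists that are not named here. Reads of such overlapping genes cannot be told apart if strand was not used in counting. IAA34 and ARF19 overlap a gene on the same strand (AT1G15060 and AT1G19210), where strand would not separate the reads.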

How the data were processed

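RNA-seq libraries of 5-day-old seedlings, 2 of HBI1-Ox and 2 of Col-0, were grouped by their labels. The authors deposited raw whole-number read counts per gene. The submitters' processing notes name TopHat, DESeq and the build TAIR10, without versions. The sources used here name no counter and no strand setting. A second deposited table holds the authors' log2 fold changes for part of the genes and is quoted only where named. Rows belonging to no gene held 13.5% and 13.2% of reads in HBI1-Ox and 13.7% and 13.7% in Col-0 and were left out.

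The counts were filtered with filterByExpr (minimum count 10, total 15; 20320 genes kept), scaled with TMM and tested in R 4.3.3 with edgeR 4.0.16 (quasi-likelihood, 2 residual degrees of freedom, two-sided), adjusted by Benjamini-Hochberg over all genes tested with a threshold of 0.05. CPM use the TMM-scaled library size, and levels per kb the longest RefSeq TAIR10.1 transcript. The standard error is the absolute change over the square root of F. The procedure was tested on simulated counts, where it recovered 89.8% of 2-fold and 63.3% of 1.5-fold changes. The simulation gave all genes and both genotypes 1 common spread, which the real library pairs do not share, so recovery here may differ. Alternatives were RLE factors, total counts, no filter, a 1 CPM filter, DESeq2 1.42.0, limma-voom 3.58.1, a threshold of 0.01, the replicate number as a block, each library left out and the HBI1-Ox libraries summed. A chi-square was taken over genes with at least 20 reads. It told 64 of 20127 genes apart between the HBI1-Ox libraries and 2322 of 20074 between the Col-0 libraries. All 4 were kept as samples, though so small a difference cannot show that the HBI1-Ox libraries are separate samples. The fit with them summed was run for that reason.

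All 112 listed loci were matched to RefSeq. The members and lists were chosen with earlier results of these data known. Values per library are given for called members, the 3 highest of each family, the neighbour pairs and IAA19, and in each other list for up to 3 called genes of smallest adjusted p. IAA4, IAA12, IAA16, IAA18, IAA29, IAA30, IAA34, GH3.4, GH3.9 and UGT84B1 were added after their values were seen. The degron core was found by translating the coding sequences, and no separate protein records were used.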

Additional observations from a re-analysis of the deposited data

How the results depend on the processing

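Counts of called members are given as Aux/IAA higher, Aux/IAA lower and GH3 lower, 4, 7 and 4 as reported. They were the same with RLE factors, a 1 CPM filter and limma-voom. Total counts gave 2, 12 and 4. No low-count filter gave 4, 10 and 4, DESeq2 gave 4, 5 and 2, and the threshold of 0.01 gave 2, 3 and 1. The HBI1-Ox libraries summed as 1 sample gave 1, 0 and 1. The fit with the replicate block gave 4, 5 and 3, losing IAA9, IAA32 and GH3.1. The shared numbers are not said to mean anything. Across the tested genes, the deviations of HBI1-Ox library 1 and Col-0 library 1 from their genotype means correlated at 0.000376. With 1 library left out, where the lone library takes its spread from the other genotype, the counts ranged from 0 to 5, from 0 to 12 and from 1 to 5, lowest without either HBI1-Ox library and highest without Col-0 library 2. GH3 genes called higher were 0 in each fit but the one without Col-0 library 2, with 1, so leaving out a library gave 0 to 1. No called member changed sign in any of these fits. The causes of the other differences were not tested. Depth limits the members under about 20 reads a library, where the few reads set the error.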
